A study of Mus musculus with 6 samples.

Results

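The genes described here are 37 genes of the integrated stress response and its transcription factor ATF4, chosen by symbol from a table of 26969 genes. They fill 38 rows of that table, because Ddit3 has a second row with at most 1 count per library, and the other Ddit3 row is the one used throughout. The 37 genes comprise 12 transcription factors and feedback genes, 3 kinases of the translation factor eIF2, 11 enzymes of amino acid synthesis and one-carbon metabolism, 8 amino acid transporters and 3 genes of secreted factors. All 37 passed the filter on low counts, with 249 to 33159 counts in a library.

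The series sequenced poly(A) RNA from 6 libraries of mouse chondrocytes, the cell type of cartilage. It compares chondrocytes given mitochondria with chondrocytes that were not, and its title names osteocytes as the source of the mitochondria. The 3 libraries described as mAC_Mito are titled and annotated as vehicle, and the 3 described as mAC are titled and annotated as mitochondria-treated. The groups are called mAC_Mito and mAC after their descriptions, differences are mAC_Mito minus mAC, and none is an effect of mitochondria in a known direction. Every library is wild type, and strain, age, mitochondrial dose, time after transfer and the origin of replicates are not given in the labels. P-values therefore measure the spread between these libraries, which may be technical.

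Total counts ran from 59116068 to 68378213 per library. The cartilage genes Col2a1, Acan, Sox9, Col9a1 and Comp were all expressed, with Col2a1 at 951 to 1662 FPKM (a level scaled by gene length and library depth) and Sox9 at 17.7 to 25.1 FPKM. Macrophage, leukocyte and endothelial markers were at 1.65 FPKM or less, and the osteocyte genes Dmp1, Sost and Phex at 0.104 FPKM or less, with Sost at 0 in 4 of 6 libraries. Of the osteoblast genes, Ibsp was at 6.55 to 9.23 FPKM and Bglap at 0.295 to 0.478 FPKM. The fat genes Adipoq and Plin1 were at 12.4 to 21.4 FPKM and 3.31 to 4.45 FPKM. The muscle genes Acta1 and Myh3 were at 11.2 to 19.3 FPKM and 0.971 to 1.32 FPKM. The extraction protocol in the labels speaks of an adipose type. In such bulk RNA, fewer cells of a type and less RNA per cell cannot be told apart, and the part of other cells in the values below was not tested. The mRNAs of the mitochondrial genome took 5.60%, 2.91% and 3.40% of counts in mAC_Mito 1, 2 and 3, against 7.31%, 4.71% and 3.13% in mAC 1, 2 and 3.

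In the integrated stress response, kinases that sense different stresses phosphorylate eIF2, which slows translation in general while favouring that of Atf4 mRNA. ATF4 then binds with C/EBP factors to C/EBP-ATF response elements and induces genes for amino acid synthesis and uptake, for tRNA charging and for feedback on the pathway. Mitochondrial damage is known to reach it through the protease OMA1, the relay protein DELE1 and the kinase HRI. Chondrocytes secrete large amounts of collagen, and ATF4 is known as a factor in cartilage and bone growth. Messenger RNA does not show eIF2 phosphorylation or the amount of ATF4 protein.

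The core of the response element, TGATGCAA or its reverse complement TTGCATCA, was searched in promoters that reach from 250 bases before to 50 bases after a gene's start (RefSeq, GRCm38.p6). Of the 37 genes, 31 had a promoter in that table. The element was present in 6 of these 31 (19.4%), and in 279 of 27025 genes of the table (1.03%). The 37 genes were chosen as genes of this response, so the higher share among them is not a finding of these data. The windows are shown because these are the letters through which ATF4 is known to act on such targets. They are read 5′ to 3′ on the gene's strand, with the match in capitals and no base after the RefSeq start included. The Slc7a11 window holds the element on both strands, and the Asns window holds the related TGATGAAA, which was searched afterwards and occurred in 311 of the 27025 genes (1.15%). A match is a description of letters and not of a bound site.
Chac1: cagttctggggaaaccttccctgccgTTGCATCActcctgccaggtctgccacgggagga
Fgf21: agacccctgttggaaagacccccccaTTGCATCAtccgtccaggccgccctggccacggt
Nupr1: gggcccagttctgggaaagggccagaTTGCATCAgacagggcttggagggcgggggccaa
Pycr1: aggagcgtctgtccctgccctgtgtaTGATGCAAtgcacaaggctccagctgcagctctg
Slc7a11: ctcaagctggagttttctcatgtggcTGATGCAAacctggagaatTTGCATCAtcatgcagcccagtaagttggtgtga
Asns: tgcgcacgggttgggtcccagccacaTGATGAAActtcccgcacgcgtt
These windows lie at chr2:119351023-119351082 on the plus strand for Chac1 and, on the minus strand, at chr7:45615596-45615655 for Fgf21, chr7:126625547-126625606 for Nupr1, chr11:120643818-120643877 for Pycr1, chr3:50443627-50443705 for Slc7a11 and chr6:7693210-7693258 for Asns. The first base of the match was 193 bases before the start in Chac1, 139 in Fgf21, 110 in Nupr1 and 103 in Pycr1. In Slc7a11 the matches began 66 and 47 bases before the start, and in Asns 23. All these starts are those of RefSeq. By the authors' gene positions, the Nupr1 window lies inside the gene (126623249 to 126630861). So do the match and most of the window of Asns (7675169 to 7693254). The sixth promoter with the element, that of Slc1a4, has it 4 bases before the start and running past it, and is not printed.

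Transcripts of the pathway were abundant in both groups. By mean FPKM over the 6 libraries, 29 of the 37 genes were at 10 or more, against 23.0% of the 17645 genes tested, and 18 of the 37 were among the top 10% of genes tested. Their median was 25.1 FPKM, against 2.73 FPKM over all genes tested. Atf4 was the most abundant, followed by Atf5 and by Phgdh, the entry enzyme of serine synthesis. The low end was held by the cystine transporter Slc7a11 (0.945 FPKM), the amino acid sensing kinase Eif2ak4 (2.13 FPKM) and the stress cytokine Gdf15 (2.92 FPKM).

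**Figure D1:**
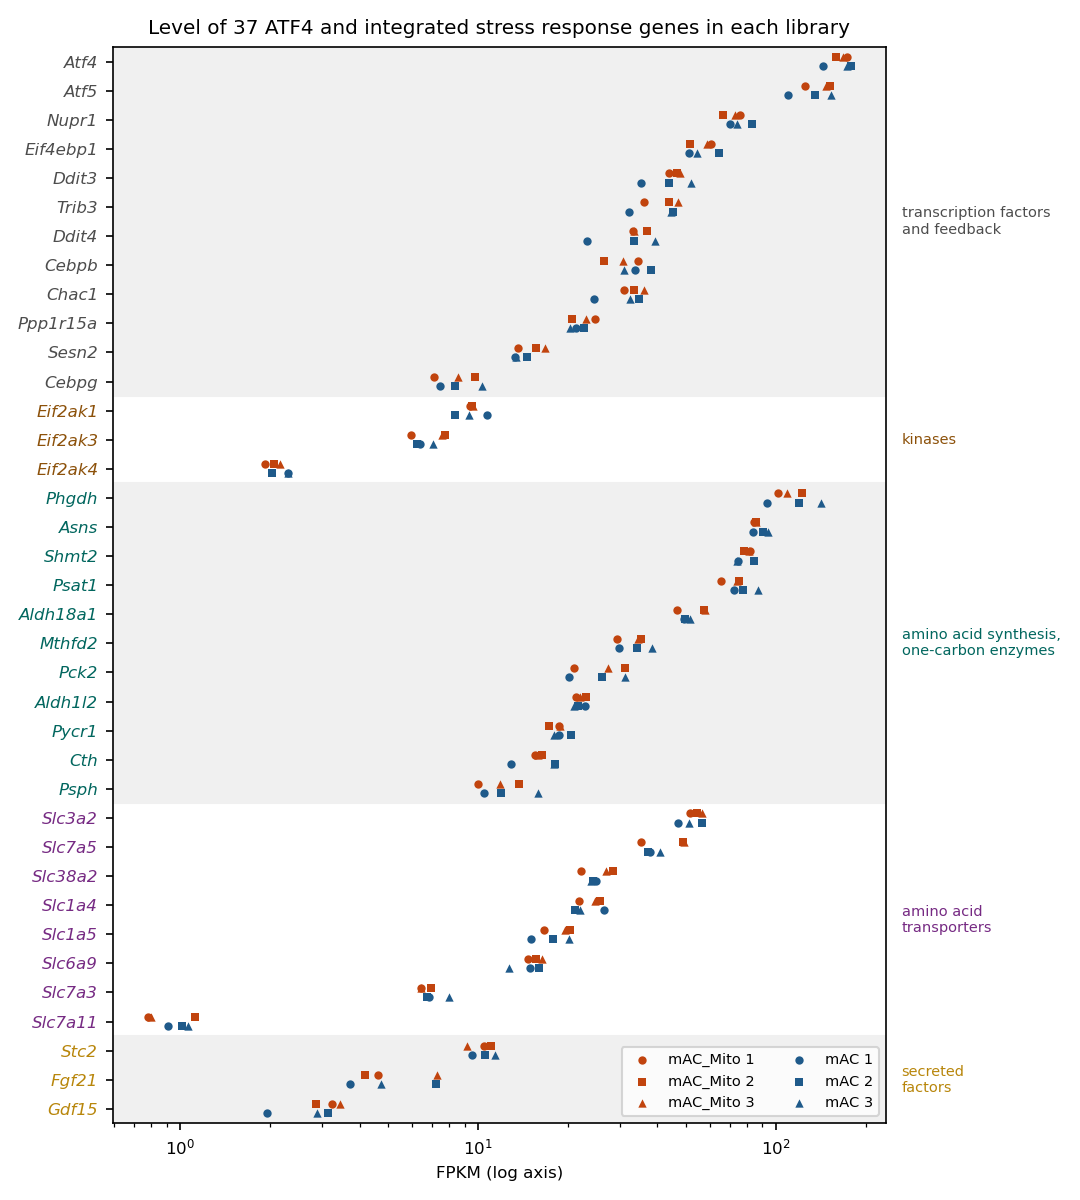
Level of each of the 37 genes in FPKM (log axis) in the 3 mAC_Mito libraries (orange) and the 3 mAC libraries (blue), grouped by role and ordered by mean level. Mean levels span 0.945 FPKM for Slc7a11 to 166 FPKM for Atf4, and the groups overlap for all 37 genes.

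No member passed the test of a difference between the groups. In edgeR's quasi-likelihood test, 0 of 37 passed a Benjamini-Hochberg adjusted p of 0.05, where 0.0113% of all genes tested passed (2 of 17645, neither of them a member; 0.00567% in each direction). At an unadjusted p under 0.05 there were also 0 of 37, where 3.19% of all genes tested lie (563). DESeq2 and limma likewise called 0 of 37. The adjusted p of every member was 0.99992, and the smallest unadjusted p was 0.102, for Psat1. Log2 fold changes ran from -0.18 (Cebpb) to 0.25 (Gdf15), with 20 genes above 0 and 17 below, and a median of 0.02. Over all genes tested the median was 0.0016, with 50.4% above 0. For the genes tested with a mean of at least 10 FPKM it was -0.011, with 45.3% above 0.

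The 95% interval of the fold change lay within 1.5-fold in either direction for 35 of the 37 genes. The exceptions were the secreted hormones Fgf21 (interval 0.660-fold to 1.55-fold) and Gdf15 (0.889-fold to 1.59-fold). The median interval reached 0.26 on the log2 scale to either side, against 0.25 for the 4051 genes tested with a mean of at least 10 FPKM. For 29 of 37 members (78.4%) the difference between group means was smaller than the spread within groups (pooled SD of log2 CPM), against 79.0% of those 4051 genes.

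**Figure D2:**
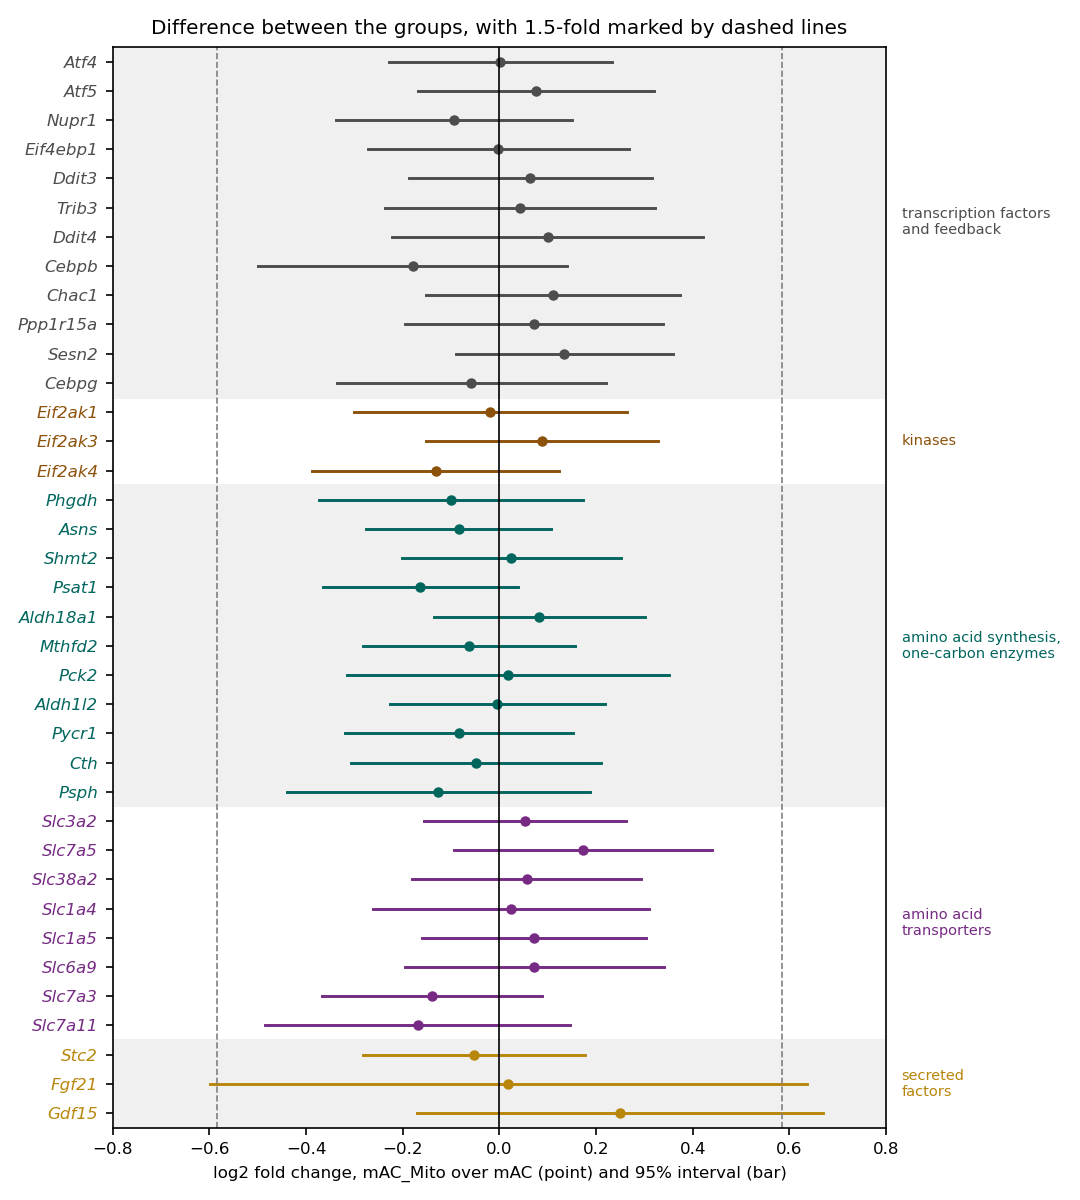
Log2 fold change of each member, mAC_Mito over mAC (point), with its 95% interval from edgeR (bar), grouped by role, and dashed lines at 1.5-fold. Every interval includes 0, and those of Fgf21 and Gdf15 alone cross a dashed line.

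Atf4 and the factors around it were at close levels in both groups. Values per library are given as CPM, counts scaled to library size with TMM factors. Atf4, on chromosome 15 at 80255184 to 80257541, was at 490.3, 417 and 450.2 CPM in mAC_Mito 1, 2 and 3, against 419, 484 and 453 CPM in mAC 1, 2 and 3. The groups overlapped over nearly their whole range, and the log2 fold change was 0.0018 (fold 95% interval 0.853 to 1.17). Atf4 averaged 167 ± 7.00 FPKM in mAC_Mito and 165 ± 18.9 FPKM in mAC (SD, n = 3). Atf5, a related factor tied in mammals to the mitochondrial unfolded protein response, averaged 141 ± 14.2 FPKM in mAC_Mito and 132 ± 21.6 FPKM in mAC. The C/EBP partners of ATF4 were less abundant. With all 6 libraries Cebpb had the lowest fold change of all members, at 62.4, 44.4 and 52.2 CPM in mAC_Mito 1, 2 and 3, against 62.6, 65.8 and 51.7 CPM in mAC 1, 2 and 3. The groups overlapped, since mAC_Mito 1 was above mAC 3, and edgeR gave a log2 difference of -0.18 (SE 0.14). This ran from -0.32 without mAC_Mito 1 to -0.07 without mAC_Mito 2, where Slc7a11 was lowest at -0.33. Cebpg averaged 8.46 ± 1.32 FPKM in mAC_Mito and 8.69 ± 1.48 FPKM in mAC.

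Of the 12 transcription factors and feedback genes, 5 had their lowest value in mAC 1, and none separated the groups. Ddit3, which encodes the pro-apoptotic factor CHOP, was at 90.4, 88.4 and 92.6 CPM in mAC_Mito 1, 2 and 3, against 74.9, 86.2 and 98.6 CPM in mAC 1, 2 and 3. Its mAC_Mito values thus lay inside the range of mAC. Ddit3 lies on chromosome 10 at 127290774 to 127296288, where Mars1 overlaps it on the opposite strand with up to 8141 counts, and whether the counting used strand is not given in the sources used here. The same holds for Atf5 with Nup62 (up to 5467 counts) and Cebpb with Tmem189 (up to 3677). Trib3, a pseudokinase that restrains ATF4 and CHOP, was at 92.5, 103 and 113 CPM in mAC_Mito 1, 2 and 3, against 84.4, 111 and 105 CPM in mAC 1, 2 and 3. Chac1, an enzyme that degrades glutathione, was at 60.7, 60.6 and 66.7 CPM in mAC_Mito 1, 2 and 3, against 49.7, 65.4 and 59.1 CPM in mAC 1, 2 and 3. For both genes mAC 1 was the lowest library and the rest of the 2 groups interleaved. Ddit4, an inhibitor of the growth kinase mTORC1, had its lowest value in the same library, at 50.4 CPM against 66.2 to 76.6 CPM in the other 5.

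Sesn2, a leucine sensor that also restrains mTORC1, had the third highest fold change among members with at least 1 FPKM over all 6 libraries. It was at 57.0, 60.4 and 66.0 CPM in mAC_Mito 1, 2 and 3, against 57.3, 58.1 and 51.6 CPM in mAC 1, 2 and 3. Only mAC_Mito 1 kept the groups from separating, and the unadjusted p was 0.210. Nupr1, a small stress-induced chromatin protein, averaged 71.7 ± 4.86 FPKM in mAC_Mito and 75.6 ± 6.43 FPKM in mAC. Eif4ebp1, a repressor of cap-dependent translation, averaged 57.0 ± 4.76 FPKM in mAC_Mito and 56.5 ± 6.91 FPKM in mAC. Ppp1r15a encodes GADD34, which returns eIF2 to its unphosphorylated form, and averaged 22.8 ± 2.10 FPKM in mAC_Mito and 21.4 ± 1.20 FPKM in mAC. Of the 12 genes of this role 8 had a fold change above 1 and 4 below, with Atf4 among the 8 lying just below 1 under other scalings, and their log2 fold changes had a median of 0.05.

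The 3 eIF2 kinases had mean levels of 2.13 to 9.47 FPKM. Eif2ak1 (HRI), which responds to heme shortage and mitochondrial stress, averaged 9.50 ± 0.133 FPKM in mAC_Mito and 9.45 ± 1.16 FPKM in mAC. It was at 63.9, 60.0 and 61.9 CPM in mAC_Mito 1, 2 and 3, against 75.0, 54.5 and 58.7 CPM in mAC 1, 2 and 3. The mAC_Mito libraries sat inside the range of mAC, whose highest library was mAC 1. Eif2ak3 (PERK), the sensor of the endoplasmic reticulum, averaged 7.09 ± 0.984 FPKM in mAC_Mito and 6.55 ± 0.423 FPKM in mAC. Eif2ak4 (GCN2), which senses uncharged tRNA, averaged 2.05 ± 0.122 FPKM in mAC_Mito and 2.21 ± 0.155 FPKM in mAC. By mean FPKM HRI was the highest of the 3 and GCN2 the lowest in both groups, but Aimp2 overlaps Eif2ak1 on the opposite strand with up to 2739 counts, against at least 3651 for Eif2ak1, and the use of strand is unknown.

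The enzymes held the only members whose groups did not overlap in CPM, and both were lower in mAC_Mito: Asns and Psat1. That is 2 of 37, where 8.31% of all genes tested do not overlap, so the members' share is no higher than the background. With mAC_Mito lower there were 2 of 37 (background 4.38%), and with mAC_Mito higher 0 of 37 (background 3.93%). Of the 4051 genes tested with a mean of at least 10 FPKM, 168 did not overlap with mAC_Mito lower and 75 with mAC_Mito higher. Asns, which makes asparagine and is a standard reporter of ATF4, lies on chromosome 6 at 7675169 to 7693254. It was at 278, 262 and 266 CPM in mAC_Mito 1, 2 and 3, against 284, 284 and 286 CPM in mAC 1, 2 and 3. The gap between the groups was small beside the spread of mAC_Mito, the fold change was 0.943 (95% interval 0.826 to 1.08) and the unadjusted p was 0.349. Psat1, the second enzyme of serine synthesis, lies on chromosome 19 at 15904678 to 15947337. Psat1 was at 334, 357 and 356 CPM in mAC_Mito 1, 2 and 3, against 380.3, 380.0 and 412 CPM in mAC 1, 2 and 3, a fold change of 0.893 (95% interval 0.776 to 1.03). On the FPKM scale, where 7.31% of all genes tested do not overlap, the groups overlapped for both genes and for all 37 members. The scales differ between libraries: in the median over 4051 genes, FPKM relative to CPM was 0.961, 1.04 and 1.02 in mAC_Mito 1, 2 and 3, against 0.933, 1.01 and 1.04 in mAC 1, 2 and 3.

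The other serine enzymes varied more between libraries than between groups. Phgdh was at 305, 337 and 307 CPM in mAC_Mito 1, 2 and 3, against 287, 341 and 390.0 CPM in mAC 1, 2 and 3. Its lowest and its highest library both belonged to mAC. Psph, which completes serine synthesis, averaged 11.8 ± 1.89 FPKM in mAC_Mito and 12.8 ± 2.79 FPKM in mAC, and Cct6a overlaps it on the opposite strand with up to 19469 counts. The mitochondrial one-carbon enzymes Shmt2 and Mthfd2 averaged 80.1 ± 1.99 and 33.0 ± 3.23 FPKM in mAC_Mito, against 77.7 ± 5.74 and 34.1 ± 4.37 FPKM in mAC. Aldh1l2, the mitochondrial enzyme that oxidises formyl-tetrahydrofolate, averaged 22.1 ± 0.910 FPKM in mAC_Mito and 21.8 ± 0.906 FPKM in mAC. D10Wsu102e overlaps Aldh1l2 on the opposite strand with up to 3881 counts, against at least 11246 for Aldh1l2. Shmt2, Mthfd2 and Aldh1l2 are known ATF4 targets in mitochondrial stress, and the interval of each lay within 1.5-fold.

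The proline enzymes Aldh18a1 and Pycr1, which supply the proline of collagen, had fold changes on either side of 1. Aldh18a1 averaged 53.9 ± 6.46 FPKM in mAC_Mito and 50.0 ± 1.34 FPKM in mAC, and Pycr1 18.2 ± 0.846 FPKM in mAC_Mito and 19.1 ± 1.26 FPKM in mAC. Pck2, the mitochondrial form of phosphoenolpyruvate carboxykinase, averaged 26.4 ± 5.09 FPKM in mAC_Mito and 25.8 ± 5.50 FPKM in mAC. Cth, which makes cysteine from cystathionine, averaged 15.9 ± 0.436 FPKM in mAC_Mito and 16.3 ± 2.97 FPKM in mAC. Of the 11 enzymes 3 had a fold change above 1 and 8 below, with a median log2 fold change of -0.06.

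None of the transporters passed the test, with 6 of 8 above a fold change of 1 and a median log2 fold change of 0.05. Slc7a5, the light chain of the leucine transporter LAT1, had the second highest fold change among members with at least 1 FPKM over all 6 libraries. It was at 157, 201 and 207 CPM in mAC_Mito 1, 2 and 3, against 174, 159 and 168 CPM in mAC 1, 2 and 3. mAC_Mito 2 and 3 were above every mAC library and mAC_Mito 1 below every one, and the fold change was 1.13 (95% interval 0.938 to 1.36). Slc3a2, the heavy chain shared by LAT1 and the cystine transporter, was the most abundant of the 8. It was at 218, 214 and 226 CPM in mAC_Mito 1, 2 and 3, against 205, 229 and 200.01 CPM in mAC 1, 2 and 3, so that the mAC_Mito libraries lay inside the range of mAC. Slc7a11, the cystine-specific chain of that transporter, averaged 0.897 ± 0.191 FPKM in mAC_Mito and 0.993 ± 0.0779 FPKM in mAC, far below its partner chain in every library.

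The cationic amino acid transporter Slc7a3 was at 29.4, 29.2 and 27.7 CPM in mAC_Mito 1, 2 and 3, against 32.1, 29.3 and 33.7 CPM in mAC 1, 2 and 3. The groups overlapped by less than 1 CPM, and the unadjusted p was 0.201. Neutral amino acid carriers were at moderate levels in both groups. Slc38a2 averaged 25.8 ± 3.34 FPKM in mAC_Mito and 24.4 ± 0.554 FPKM in mAC. Slc1a4, a serine and alanine carrier, averaged 24.0 ± 2.06 FPKM in mAC_Mito and 23.1 ± 2.84 FPKM in mAC, and the glutamine carrier Slc1a5 averaged 18.8 ± 1.97 FPKM in mAC_Mito and 17.7 ± 2.55 FPKM in mAC. The glycine carrier Slc6a9 averaged 15.6 ± 0.810 FPKM in mAC_Mito and 14.5 ± 1.71 FPKM in mAC. B4galt2 overlaps Slc6a9 on the opposite strand with up to 3325 counts, against at least 4651 for Slc6a9, and the use of strand is unknown.

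Of the secreted factors, Fgf21 and Gdf15 are known to report mitochondrial stress from tissues to the blood, and they had the widest intervals of the members. Gdf15, on chromosome 8 at 70629393 to 70632456, had 457, 359 and 443 counts in mAC_Mito 1, 2 and 3, against 255, 459 and 380 counts in mAC 1, 2 and 3. In CPM these were 7.21, 5.90 and 7.23 in mAC_Mito 1, 2 and 3, against 4.48, 6.70 and 5.91 in mAC 1, 2 and 3. With all 6 libraries it had the highest fold change of the members, 1.19 (95% interval 0.889 to 1.59, unadjusted p = 0.213 in edgeR). Its log2 fold change of 0.25 ran from 0.11 without mAC 1, its lowest library, to 0.38 without mAC 2. Without mAC 1, Slc7a5 (0.20), Slc1a4 (0.18), Sesn2 (0.16) and several other members lay above Gdf15. Without mAC_Mito 1, Slc7a5 was at 0.28 and Gdf15 at 0.20. Fgf21 was at 5.27, 4.40 and 7.85 CPM in mAC_Mito 1, 2 and 3, against 4.37, 7.91 and 4.996 CPM in mAC 1, 2 and 3. Each group held 1 library near 8 CPM, with the other two at or under 5.27 CPM, and the ratio of the highest to the lowest library, 1.81, was the largest of all members. Stc2, a secreted glycoprotein induced by stress of the endoplasmic reticulum, was the most abundant of the 3. It was at 65.0, 63.8 and 53.9 CPM in mAC_Mito 1, 2 and 3, against 61.2, 62.9 and 65.3 CPM in mAC 1, 2 and 3, with overlapping groups.

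The members also varied among libraries of the same group. The ratio of the highest to the lowest library in CPM ran from 1.09 (Asns) to 1.81 (Fgf21), was under 1.5 for 34 members and had a median of 1.29. The median SD of log2 CPM over the 6 libraries was 0.133, against 0.136 for the 4051 genes tested with at least 10 FPKM. mAC 3 was the highest library for 12 of 37 members (32.4%), against 20.2% of all genes tested. Enzymes made up 6 of those 12, among them Phgdh, Psat1, Psph, Asns and Mthfd2. mAC 1 was the lowest library for 11 members (29.7%), against 24.0% of all genes tested. Those 11 were Ddit3, Trib3, Chac1, Atf5, Ddit4, Fgf21, Gdf15, Phgdh, Pck2, Cth and Slc1a5. Eif2ak1, Eif2ak4, Aldh1l2 and Slc1a4 were highest there. Atf4, Cebpb, Nupr1 and Eif4ebp1 were among those lowest in mAC_Mito 2. The library mAC 1 also had the highest share of mitochondrial mRNA, 7.31%, and the smallest TMM factor, 0.963. The part of either in these values was not tested.

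**Figure D3:**
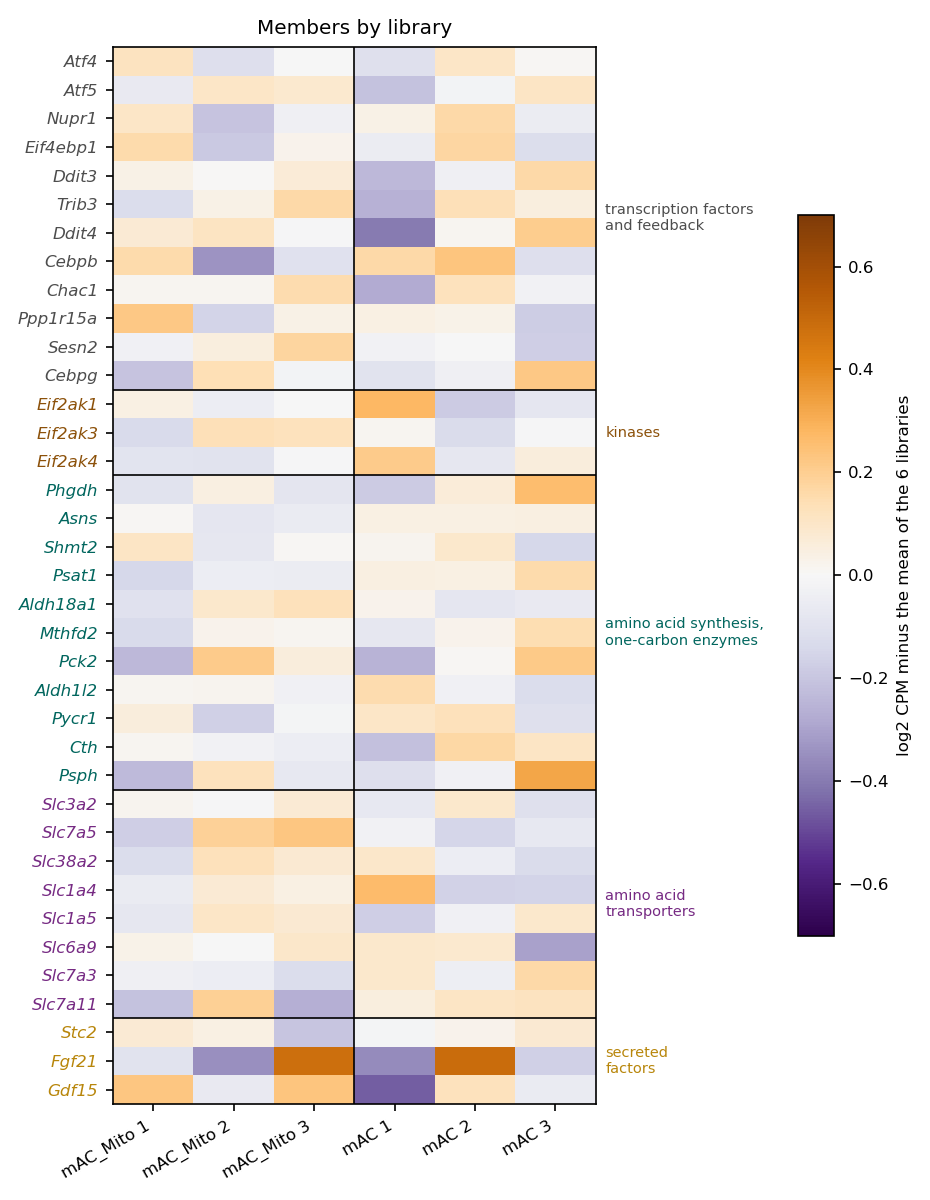
Log2 CPM of each member minus its mean over the 6 libraries, with mAC_Mito 1 to 3 in the left columns and mAC 1 to 3 in the right columns, grouped by role. Ddit3, Trib3, Chac1, Ddit4 and Gdf15 are low in mAC 1, and Phgdh and Psph are high in mAC 3.

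**Figure D4:**
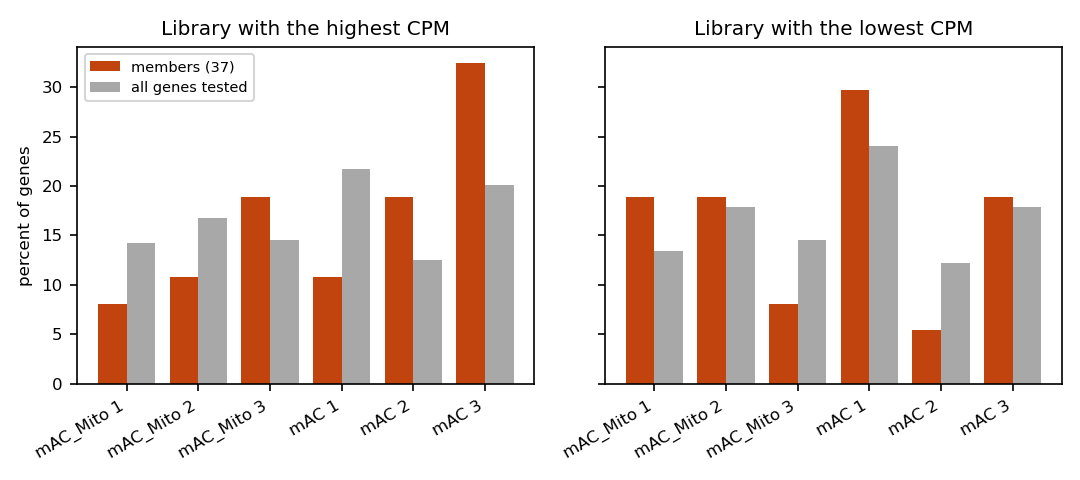
Percent of the 37 members (orange) and of all 17645 genes tested (grey) that had their highest (left) or lowest (right) CPM in each library. Members were most often highest in mAC 3 (32.4%) and most often lowest in mAC 1 (29.7%).

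Averaged over members, the level of each role (log2 CPM of each gene, centred on its own mean, then averaged) ran from -0.28 to 0.21, both in mAC libraries and both for the 3 secreted factors. For transcription factors and feedback genes it was 0.038, -0.045 and 0.045 in mAC_Mito 1, 2 and 3, against -0.118, 0.073 and 0.0077 in mAC 1, 2 and 3. For the enzymes it was -0.068, 0.011 and -0.013 in mAC_Mito 1, 2 and 3, against -0.042, 0.038 and 0.074 in mAC 1, 2 and 3. The groups overlapped in both roles. The transporters had -0.078, 0.079 and 0.026 in mAC_Mito 1, 2 and 3, against 0.041, -0.019 and -0.049 in mAC 1, 2 and 3, and overlapped too. Together the 37 genes took 0.501%, 0.520% and 0.520% of counts in mAC_Mito 1, 2 and 3, against 0.480%, 0.524% and 0.536% in mAC 1, 2 and 3.

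Genes next to the members in the pathway were measured as 6 lists of 79 genes, all tested. Of these, 0 of 79 passed an adjusted p of 0.05 in edgeR, where 0.0113% of all genes tested passed. At an unadjusted p under 0.05 there were 0 of 79 as well. Without mAC_Mito 1 there were 6 of 79, without mAC 3 there were 2, and in DESeq2 with all libraries 1. Over all genes that count was 563 of 17645 with all libraries, 1225 of 18182 without mAC_Mito 1 and 708 of 26969 in DESeq2. With any 1 library left out it ran from 277 of 18279 (without mAC_Mito 3) to 1225. The 13 genes of tRNA charging (cytosolic synthetases and the tRNA exporter Xpot), known ATF4 targets, lay closest to 0. Their log2 fold changes ran from -0.05 to 0.07, and Wars, the tryptophan enzyme, had the smallest unadjusted p, 0.490. Among 14 genes of eIF2, its exchange factor eIF2B and their regulators, 5 were above and 9 below 0. Gcn1, the partner of GCN2 at the ribosome, had the smallest unadjusted p (0.0709), at 3.79 ± 1.10 FPKM in mAC_Mito and 2.93 ± 0.386 FPKM in mAC.

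The 12 genes of mitochondrial stress signalling and mitochondrial chaperones include the relay from damaged mitochondria to HRI. They split into 5 above and 7 below 0, with a median log2 fold change of -0.04. Foxo3, a stress-responsive transcription factor, had the smallest unadjusted p of all 79 genes (0.0591), at 6.61 ± 1.15 FPKM in mAC_Mito and 5.45 ± 0.229 FPKM in mAC. In CPM, 6 of the 79 genes did not overlap between groups, where 8.31% of all genes tested do not. All 6 were lower in mAC_Mito (background 4.38%) and 0 higher (background 3.93%). Of the 4051 genes tested with a mean of at least 10 FPKM, 168 did not overlap with mAC_Mito lower and 75 with mAC_Mito higher. Oma1 was 1 of the 6, by a gap between 14.29 CPM in mAC_Mito 1 and 14.32 CPM in mAC 1, and its unadjusted p was 0.258. It averaged 5.69 ± 0.148 FPKM in mAC_Mito and 6.17 ± 0.741 FPKM in mAC, and Dele1 averaged 3.71 ± 0.141 FPKM in mAC_Mito and 3.82 ± 0.0302 FPKM in mAC. These carriers of the signal to HRI were named after their values were seen. In the 15 genes of the other branches of the unfolded protein response, 4 were above and 11 below 0, and Dnajc3, an inhibitor of PERK, had the smallest unadjusted p (0.0787). The 12 other amino acid transporters had 4 above and 8 below 0, with the arginine transporter Slc7a1 at an unadjusted p of 0.0737. The 13 other one-carbon, serine and thiol genes had 7 above and 6 below 0, with Mthfd2l at 0.0869. Of the 79 genes together, 31 were above and 48 below 0. Over all genes tested 50.4% were above 0, and 45.3% of those with a mean of at least 10 FPKM.

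**Figure D5:**
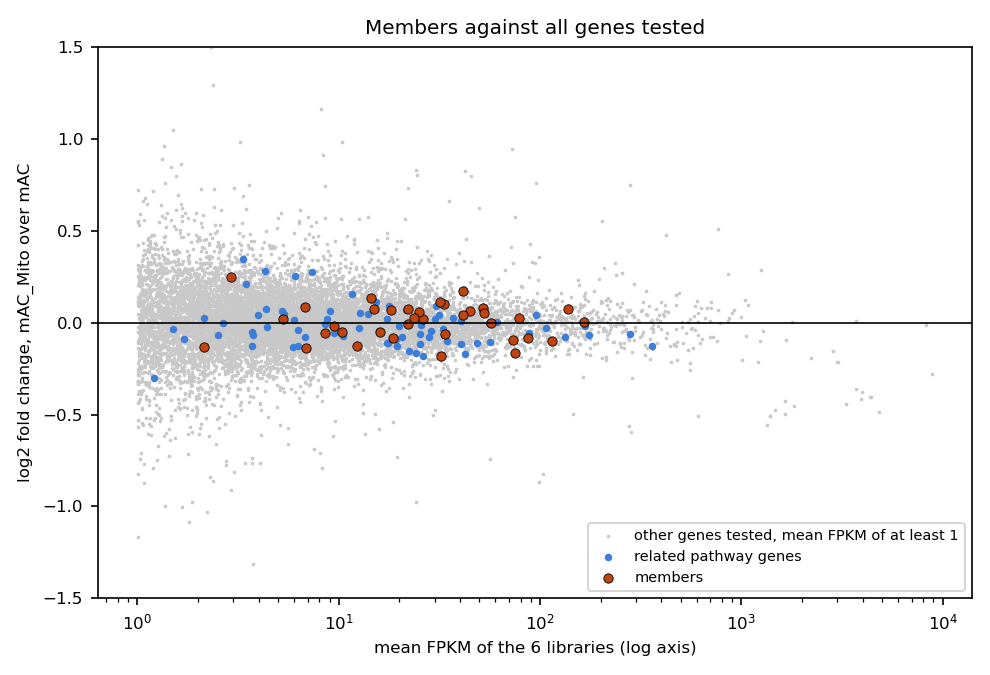
Log2 fold change (mAC_Mito over mAC) against mean FPKM (log axis) for genes tested with a mean of at least 1 FPKM: 36 members (orange), 74 related pathway genes (blue) and other genes (grey). Members lie between -0.18 and 0.25, within the cloud of other genes at their level, and 9 genes beyond 1.5 on the vertical axis are not shown.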

How the data were processed

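The authors deposited 1 table with a raw read count and an FPKM value per gene and library, per the file headers. FPKM is the authors' value scaled by gene length and library depth. Bowtie 0.12.2, HISAT2 2.0, StringTie 1.3.0 and build mm8 are listed, without roles, per the submitters' processing notes. The counting rule and strand setting: not given in the sources used here. Positions are those of the table. They match GRCm38: all 38 member rows shared at least 1 end with GENCODE M21.

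Counts were compared with edgeR 4.0.16 (quasi-likelihood test, filterByExpr with minimum count 10 and minimum total 15, TMM) in R 4.3.3, which tested 17645 genes. Benjamini-Hochberg adjustment ran over all of them, threshold 0.05. Standard errors and 95% intervals follow from the F statistic. The code was tested on simulated data. Alternatives used DESeq2 1.42.0, limma 3.58.1 on log2(FPKM + 1) and log2(FPKM + 0.1), other scalings, no filter, a replicate block, and each library left out.

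Values in every library are given for 8 reporters fixed by name, the 3 highest and 3 lowest fold changes among members with at least 1 FPKM, members whose groups do not overlap, and the most abundant member of each role; from each related list, the gene with the smallest p. Other such values were added after they were seen. Members and lists were chosen with earlier results of these data known. An exact permutation test of 3 against 3 libraries cannot go below 0.1 and was not used.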

Additional observations from a re-analysis of the deposited data

How the results depend on the processing

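No member passed the threshold under any of 14 alternatives, and the lowest adjusted p was 0.651 (Slc7a5 without mAC_Mito 1, unadjusted p = 0.0182 in edgeR's quasi-likelihood test). Besides Slc7a5, Slc7a11 reached an unadjusted p under 0.05, without mAC_Mito 2 (0.0315). The related lists also had 0 called throughout, with 6 of 79 at an unadjusted p under 0.05 without mAC_Mito 1, 2 without mAC 3 and 1 in DESeq2. Over all genes, 2 passed in the main test and 0 without a filter on low counts (760 of 26969 at an unadjusted p under 0.05). DESeq2 called 5 (708 of 26969 unadjusted), and limma called 0 on log2(FPKM + 1) (883 unadjusted) and 1 on log2(FPKM + 0.1). Leaving out 1 library gave 0 to 4: 0 without mAC_Mito 1 or mAC_Mito 3, and 4 without mAC_Mito 2 or mAC 3. Those fits had 277 of 18279 genes (without mAC_Mito 3) to 1225 of 18182 (without mAC_Mito 1) at an unadjusted p under 0.05. Whether same-numbered libraries form pairs is not given in the labels. Correlations of their deviations from the group mean were 0.124, -0.060 and -0.012 over 17645 genes, and cannot decide it with 3 libraries per group. A replicate block left 2 genes in all, 0 members and every member's sign. The members' median log2 fold change was -0.047 to 0.039 with 1 library left out, the lowest without mAC 1.

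With no call to lose, signs turned in some alternative for 19 members and held for 18 in all alternatives. Atf4 was at -0.0014 with RLE factors, -0.0027 with upper-quartile factors and -0.0029 in DESeq2. Without a filter Aldh1l2 was at 0.0012 and Eif4ebp1 at 0.0026. On log2(FPKM + 1), with or without an FPKM filter, Aldh1l2, Eif2ak1 and Eif4ebp1 were at 0.019, 0.013 and 0.016, and on log2(FPKM + 0.1) at 0.020, 0.014 and 0.017. With 1 library left out the log2 fold change ran from -0.065 to 0.057 for Atf4, -0.0024 to 0.15 for Atf5, -0.027 to 0.17 for Ddit3, -0.062 to 0.12 for Trib3, -0.048 to 0.24 for Ddit4, -0.034 to 0.16 for Ppp1r15a, -0.090 to 0.086 for Eif4ebp1, -0.14 to 0.044 for Cebpg and -0.12 to 0.13 for Eif2ak1. It ran from -0.20 to 0.011 for Phgdh, -0.22 to 0.019 for Psph, -0.040 to 0.070 for Shmt2, -0.064 to 0.078 for Aldh1l2, -0.092 to 0.14 for Pck2, -0.15 to 0.022 for Cth, -0.056 to 0.18 for Slc1a4, -0.047 to 0.14 for Slc6a9, -0.25 to 0.31 for Fgf21 and -0.11 to 0.028 for Stc2. Without sign changes, Gdf15 ran from 0.11 to 0.38, Slc7a5 from 0.10 to 0.28 and Cebpb from -0.32 to -0.07. The cause was not tested. Fgf21 (249 to 542) and Gdf15 (255 to 459) had the fewest counts per library of the members, and the part of depth in their values was not tested.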

Other observations

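Among all genes tested, 84 had TGATGCAA in their promoter on either strand, the 6 members with the element included. None of the 84 passed an adjusted p of 0.05 in edgeR, where 0.0113% of all genes tested passed (2 of 17645). With so few calls in all, 0 of 84 does not set these genes apart. Their median log2 fold change was 0.014, against 0.0056 for tested genes with a promoter in the table that lacks the element. Those 6 members, Chac1, Fgf21, Nupr1, Pycr1, Slc1a4 and Slc7a11, ran from -0.17 to 0.11.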
